A study of Arabidopsis thaliana with 4 samples.

Results

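RNA polymerase II is the nuclear enzyme that transcribes protein-coding genes, and its subunits in Arabidopsis thaliana are encoded by genes with NRPB symbols. The genes described here are those with a symbol made of NRPB and a number, a probe set paired with them alone, and a mean signal of 29.03 or more over 4 arrays. Signal here is the MAS5 intensity of a probe set, with each array scaled to a trimmed mean of 100. The genes were chosen by symbol and by that mean signal, and this family was picked with earlier results of these data known. The rule found 5 genes among 7322 that passed the same filters: NRPB6A, NRPB6B, NRPB7, NRPB9B and NRPB12. Of the 15 NRPB symbols in the RefSeq gene table, 6 have a probe set paired with them alone, NRPB3 shares its probe set with NRPE3B, and 8 were not analysed here, among them NRPB1 and NRPB2, which form the catalytic centre. The sixth gene with its own probe set, NRPB9A, had a mean signal of 12.33 and lay outside the rule; the nearest member inside it was NRPB9B, with a mean of 36.29.

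RNA came from rosette leaves of 3-week-old soil-grown plants of the Col-0 background, with 1 ATH1 array for each of 4 groups. The groups are ERD15 overexpressor plants of line 52 sprayed with 100 µM abscisic acid (ABA), the same line under mock spray, plants carrying the empty pCP60 vector under ABA, and vector plants under mock spray. ABA is a hormone through which plants respond to water shortage, and ERD15, a short acidic protein, takes its name from an early response to drying. Each spray held 0.07% ethanol, leaves were taken after 90 min, and every seedling, vector plants included, had been germinated on 50 µg/ml kanamycin. The labels give 1 overexpressor line and do not name the promoter of the transgene. Leaves of 3 plants were pooled per sample in 3 of the groups; the label of vector mock does not say. A characteristic of the overexpressor samples names a gene knock-out, against their titles, and the titles were followed. Genotypes are those of the labels, since ERD15 was itself not analysed here.

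As background, the polymerase is built from a large core, which holds the catalytic centre and is closed by several small subunits, and a stalk that meets the emerging RNA. Some small subunits serve other nuclear RNA polymerases as well: polymerase I makes ribosomal RNA, polymerase III makes transfer RNA and other short RNAs, and the plant-specific polymerases IV and V act in RNA-directed DNA methylation. RefSeq lists NRPD or NRPE synonyms, the names used for polymerase IV and V subunits, for NRPB6A, NRPB6B, NRPB9B and NRPB12, and none for NRPB7. Less RNA per cell and fewer expressing cells cannot be told apart in whole leaves.

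The arrays were not alike in every respect. Across the 7322 genes, log2 signals correlated with a Pearson r between 0.878 and 0.935, and the lowest values belonged to pairs that held vector mock. The 25S ribosomal RNA control read 832.5 on overexpressor ABA, 262.3 on overexpressor mock, 2109 on vector ABA and 1833 on vector mock. Each of the spike-in controls bioB, bioC, bioD and cre was lowest on overexpressor mock. The 6 measured leaf photosynthesis genes were bright, with mean signals from 862.4 for LHCB4.3 to 7048 for LHCB4.1. None of the 3 paired root genes passed the filter; PYK10, EXPA7 and EXPA18 averaged 14.81, 27.23 and 13.60. The seed gene OLEO3 averaged 29.05, the stomatal gene FMA 51.79, and the xylan-related genes IRX15-L and IRX15, listed for vasculature, 61.10 and 5.35. The other listed stomatal genes, SPCH and MUTE, did not pass the filter: SPCH averaged 6.05 and MUTE less. Of these markers IRX15-L alone passed the limma threshold described below, for ABA (log2 effect 1.40 ± 0.40 SE, limma adjusted p = 0.0176).

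Of the 5 NRPB genes, 4 gave their highest signal on overexpressor mock, and NRPB9B its lowest. Over all genes tested, 23.5% were highest on that array and 29% were lowest there. The share highest there depended on signal: it was 15.9% of genes with a mean signal from 35 to 50, 24.0% from 50 to 100 and 27.0% from 100 to 150. From 35 to 50, the median log2 difference of overexpressor mock from the mean of the other arrays was -0.14. Of the members in that range, NRPB9B was at -0.45 and NRPB7 at 0.61. With 1 array per group, no replicate shows how far such a signal would vary between plants. Since the family was picked with earlier results of these data known, the shares over all genes are given for scale and are not a test. Besides the controls above, the summed signal of the photosynthesis genes was also lowest on overexpressor mock, at 17472. It was 25271 on overexpressor ABA, 26253 on vector ABA and 32945 on vector mock. PORB alone among these genes was lowest elsewhere, at 997.3 on vector ABA against 2091 on overexpressor mock. The part of these array differences in the pattern was not tested.

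**Figure D1:**
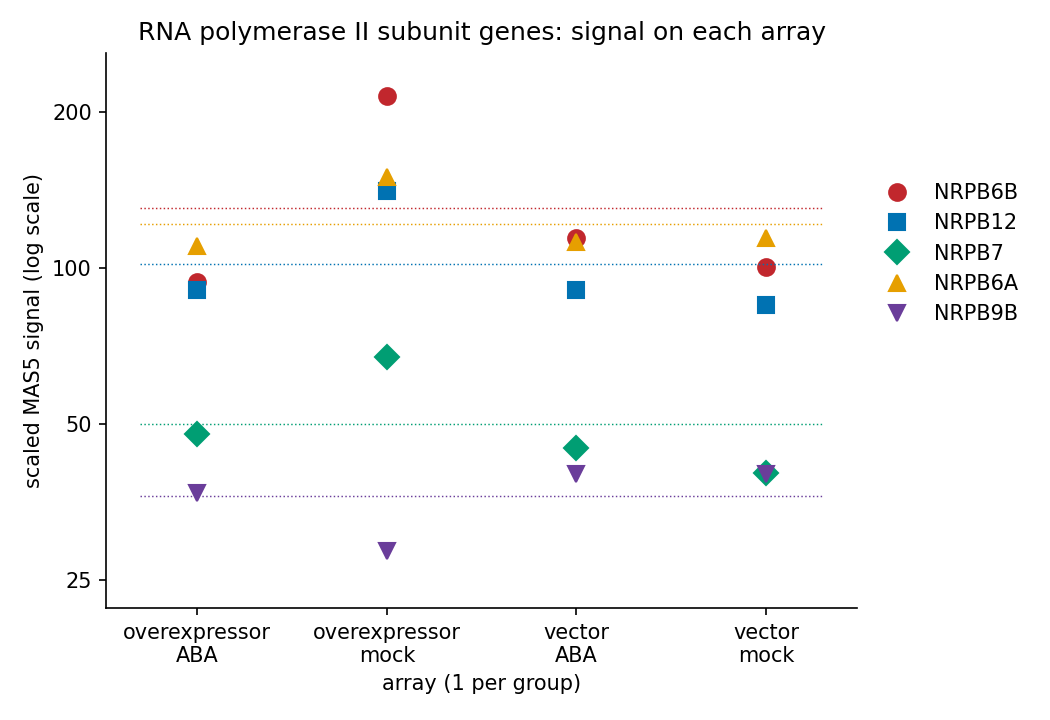
Signal of the 5 RNA polymerase II subunit genes on each of 4 arrays, as scaled MAS5 signal on a log axis; each point is 1 array and each dotted line is a gene's mean over the arrays. NRPB6B, NRPB12, NRPB7 and NRPB6A are highest on overexpressor mock, while NRPB9B is lowest there.

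The paralogous genes NRPB6A and NRPB6B encode forms of a small core subunit that in yeast is shared by RNA polymerases I, II and III and helps to hold the enzyme together. NRPB6B had signals of 93.83 on overexpressor ABA, 214.3 on overexpressor mock, 114.0 on vector ABA and 100.4 on vector mock. The overexpressor mock array thus stood 1.88-fold above the next highest, and the remaining arrays spanned 1.22-fold, the widest such span among the members. NRPB6A had signals of 110.2 on overexpressor ABA, 149.8 on overexpressor mock, 112.0 on vector ABA and 114.1 on vector mock. The same array was the high one for NRPB6A, by 1.31-fold over the next, and the remaining arrays spanned 1.04-fold.

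NRPB12 encodes a small zinc-binding subunit that is likewise shared between nuclear polymerases in yeast. Its signals were 90.52 on overexpressor ABA, 140.9 on overexpressor mock, 90.74 on vector ABA and 84.83 on vector mock. It was 1.55-fold above the next array on overexpressor mock, and the others spanned 1.07-fold. NRPB7 encodes a subunit of the stalk, which in yeast can leave the core together with its partner RPB4. Its signals were 47.68 on overexpressor ABA, 67.13 on overexpressor mock, 44.91 on vector ABA and 40.10 on vector mock. Again overexpressor mock was highest, by 1.41-fold over the next, and vector mock was lowest.

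NRPB9B encodes a form of a small zinc-binding subunit that in yeast acts in start site choice and in the accuracy of transcription. It ran the other way, with signals of 36.79 on overexpressor ABA, 28.40 on overexpressor mock, 40.06 on vector ABA and 39.89 on vector mock. On overexpressor mock it read below the filter value of 29.03, which the other members exceeded on every array. Its paralogue NRPB9A, outside the rule, read 11.15 on overexpressor ABA, 8.92 on overexpressor mock, 6.27 on vector ABA and 22.98 on vector mock, and all but vector mock were under the floor of 13.26 used for low signals. The probe set shared by NRPB3 and NRPE3B, also too dim for the rule, read 20.04 on overexpressor ABA, 36.89 on overexpressor mock, 18.51 on vector ABA and 25.54 on vector mock.

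Without overexpressor mock, the NRPB genes varied little with the scaling used. Over the other three arrays the highest signal exceeded the lowest by 1.04-fold for NRPB6A, 1.07-fold for NRPB12, 1.09-fold for NRPB9B, 1.19-fold for NRPB7 and 1.22-fold for NRPB6B. The median over all genes was 1.45-fold, and 18.3% of genes spanned no more than NRPB6B did. Among the 3875 genes with a mean log2 signal inside the range of the 5, the median was 1.46-fold and that share was 17.2%. Overexpressor mock was the highest or the lowest array for all 5, while of all genes 23.5% were highest and 29% lowest there. Leaving it out was therefore bound to narrow the span of each member, so the values for other genes are not a like comparison. Scaling changed the spans. With median centring, overexpressor minus vector under ABA was -0.48 for NRPB6B in log2 units, against -0.28 with the scaling used. After quantile normalization the same difference was -0.35 for NRPB9B, against -0.12. The summary without overexpressor mock was chosen after the values had been seen and carries no test.

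The first comparison asks whether the genes respond to ABA. In overexpressor plants the ABA array was lower than the mock array for NRPB6B by 2.28-fold (log2 difference -1.19), for NRPB12 by 1.56-fold (-0.64), for NRPB7 by 1.41-fold (-0.49) and for NRPB6A by 1.36-fold (-0.44). NRPB9B was 1.30-fold higher (0.37), a difference that was 0.08 after quantile normalization and 0.18 with median centring. NRPB6B was thus the 1 member past a 2-fold difference, in a comparison in which 8.56% of all genes differed by at least 2-fold in either direction. In vector plants the same log2 difference was 0.18 for NRPB6B, 0.16 for NRPB7, 0.10 for NRPB12, 0.01 for NRPB9B and -0.03 for NRPB6A, the last of which was 0.001 after quantile normalization. None of the 5 reached 2-fold there, while 10.2% of all genes did in either direction. The median ABA difference of the members was -0.49 in overexpressor plants and 0.10 in vector plants; the median of all genes was 0.06 in overexpressor plants and -0.09 in vector plants.

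The second comparison asks whether the genotypes differ. Under ABA, overexpressor minus vector was 0.09 for NRPB7 (-0.11 after quantile normalization), -0.003 for NRPB12, -0.02 for NRPB6A, -0.12 for NRPB9B and -0.28 for NRPB6B, in log2 units. No member reached 2-fold, against 6.06% of all genes in either direction. Under mock the same difference was 1.09 for NRPB6B (2.14-fold higher in overexpressor plants), 0.74 for NRPB7 (1.67-fold), 0.73 for NRPB12 (1.66-fold), 0.39 for NRPB6A (1.31-fold) and -0.49 for NRPB9B (1.41-fold lower). The value for NRPB9B was -0.24 after quantile normalization and -0.32 with median centring. NRPB6B was again the 1 gene past 2-fold, where 10.3% of all genes were at least 2-fold apart in either direction. Medians of the 5 genes were -0.02 under ABA and 0.73 under mock, and those of all genes were 0.08 under ABA and -0.09 under mock. This comparison under mock and the ABA comparison in overexpressor plants share the overexpressor mock array, so that its high signals enter both.

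**Figure D2:**
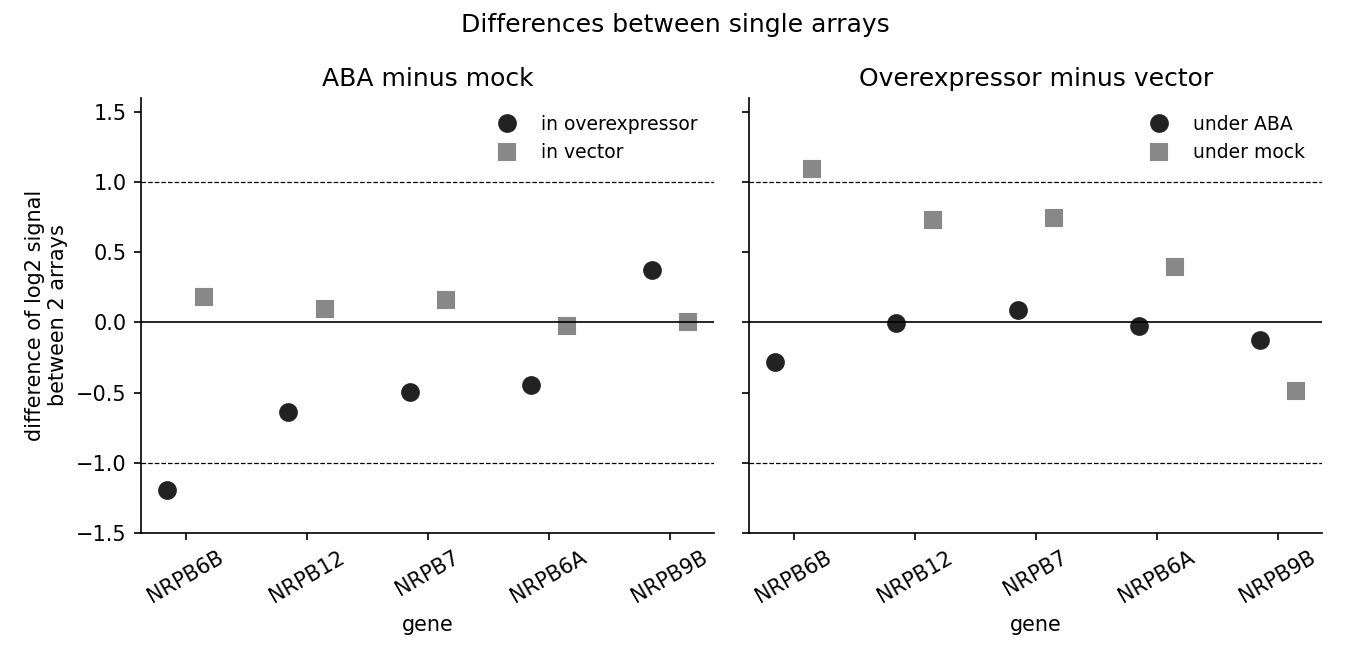
Differences of log2 signal between pairs of single arrays for each gene, as ABA minus mock within a genotype (left) and overexpressor minus vector within a spray (right); dashed lines mark 2-fold. Points that involve overexpressor mock lie away from 0, up to -1.19 and 1.09 for NRPB6B, and the others lie between -0.28 and 0.18.

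The difference of the ABA effect, overexpressor minus vector, combines all 4 arrays and has no replicate check. It was -1.38 for NRPB6B, -0.74 for NRPB12, -0.66 for NRPB7, -0.42 for NRPB6A and 0.37 for NRPB9B on the log2 scale. The member median was -0.66, whereas the median of all genes was 0.14. NRPB6B alone passed a 2-fold difference of effects, which 18.6% of all genes did in either direction. A value as low as that of NRPB6B was seen in 244 of 7322 genes (3.33%). NRPB6B was the lowest member of a family picked with earlier results known, so that share is not a test. For NRPB12, NRPB7 and NRPB6A that share was 11.1%, 13.1% and 20.9%, so these 3 lay on the lower side of the distribution without standing clear of it. The direction for NRPB9B depended on scaling, with -0.11 after quantile normalization.

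**Figure D3:**
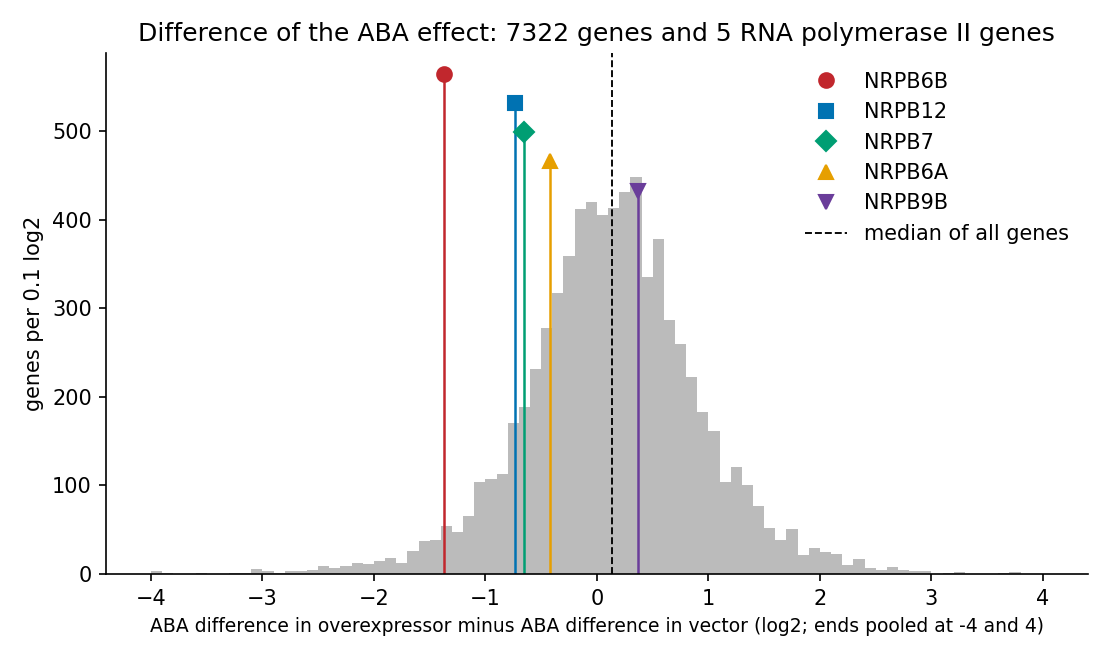
Histogram of the ABA difference in overexpressor minus that in vector (log2) for 7322 genes, in bins of 0.1, with the 5 RNA polymerase II genes as coloured lines whose heights have no meaning and the median of all genes dashed. NRPB6B lies in the lower tail at -1.38, and NRPB12, NRPB7 and NRPB6A lie below the median of 0.14, with NRPB9B above it at 0.37 (-0.11 after quantile normalization).

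Over both genotypes, treatment and genotype were fitted together to the 4 arrays with limma. No NRPB gene passed the limma threshold for ABA (Benjamini-Hochberg adjusted p under 0.05), which 3.11% of all genes did. At an unadjusted limma p under 0.05 the count among the 5 was also 0, where 8.99% of all genes passed for ABA and 8.75% for genotype, and without a trend in eBayes none passed the adjusted threshold. The ABA effect of NRPB6B was -0.50 ± 0.29 (SE, limma adjusted p = 0.713), with a 95% interval from -1.07 to 0.07. Those of NRPB12, NRPB6A and NRPB7 were -0.27 ± 0.30, -0.24 ± 0.29 and -0.17 ± 0.43, and that of NRPB9B was 0.19 ± 0.57, each with a limma adjusted p of 0.999. For genotype over both sprays none passed either, beside 1.63% of all genes. The genotype effects were 0.41 ± 0.43 for NRPB7, 0.41 ± 0.29 for NRPB6B, 0.36 ± 0.30 for NRPB12, 0.18 ± 0.29 for NRPB6A and -0.31 ± 0.57 for NRPB9B, with limma adjusted p-values from 0.840 to 0.984. The intervals are wide enough to hold a 2-fold effect of ABA for NRPB6B, and of ABA and genotype for NRPB7 and NRPB9B, so equality was not shown. The genotype interval of NRPB6B ended short of 2-fold, at 0.98. Those of NRPB12 and NRPB6A also ended short of it for both effects, the nearest at 0.96 for the genotype effect of NRPB12. The width of all these intervals rests on spread taken from other genes, so a 2-fold effect was not excluded there either. This model takes its SE from genes of like signal and treats the 2 genotypes as repeats for ABA, so that a gene high on overexpressor mock alone enters both effects with part of that excess.

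**Figure D4:**
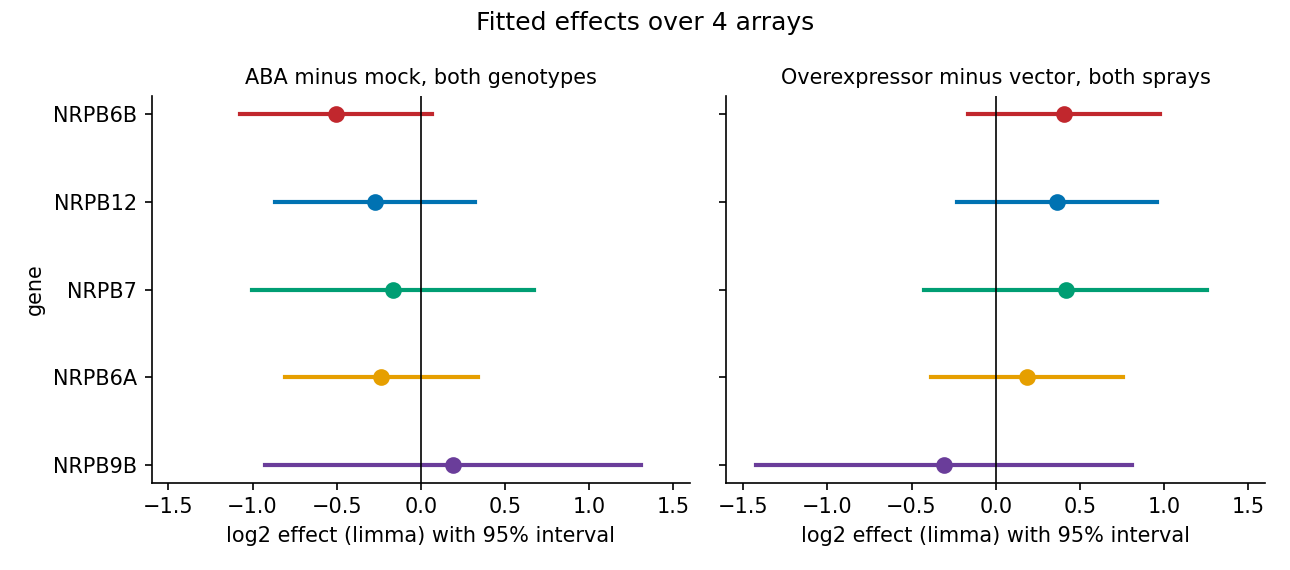
Fitted log2 effects of ABA over both genotypes (left) and of genotype over both sprays (right) for each gene, with 95% intervals from limma. Every interval covers 0, and that of the ABA effect of NRPB6B, from -1.07 to 0.07, is the nearest to leaving it out.

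Among themselves, NRPB12 and NRPB7 had the most similar patterns. Likeness was taken as the Euclidean distance between log2 signals over the 4 arrays, each gene centred on its mean, where 0 is an identical pattern. NRPB12 and NRPB7 were 0.12 apart; of 7152 other genes above the floor on every array, 14 lay nearer to NRPB12 and 23 nearer to NRPB7. The paralogues NRPB6A and NRPB6B were 0.59 apart, with 327 genes nearer to NRPB6B and 3009 nearer to NRPB6A. Signals were not scaled by their range, so a distance holds the size of differences as well as their direction. Both paralogues were highest on overexpressor mock and lowest on overexpressor ABA, with log2 ranges of 0.44 for NRPB6A and 1.19 for NRPB6B. NRPB9B lay 0.76 or more from each of the others. The genes nearest to NRPB6B were LSM6B, an Sm-like protein gene, at 0.11, AT4G15770 at 0.21 and AT2G20280 at 0.24. LSM6B read 41.20 on overexpressor ABA, 88.01 on overexpressor mock, 45.68 on vector ABA and 43.24 on vector mock. Nearest to NRPB12 were AT2G36430, AT4G26620 and AT2G03510, at 0.02, 0.03 and 0.06, and nearest to NRPB7 were AT2G47380, AT2G04520 and AT5G20080, at 0.04, 0.06 and 0.07.

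Few other genes of the transcription machinery could be set beside them. Of the other nuclear polymerase subunits, 6 had a probe set of their own and 2 passed the filter, and neither passed the limma threshold for ABA or genotype. NRPA2, the second largest subunit of polymerase I, read 64.17 on overexpressor ABA, 83.84 on overexpressor mock, 58.27 on vector ABA and 68.58 on vector mock, and so was also highest on overexpressor mock. NRPC2, its counterpart in polymerase III, read 42.36 on overexpressor ABA, 38.06 on overexpressor mock, 38.75 on vector ABA and 33.97 on vector mock. Their differences of the ABA effect were -0.15 for NRPA2 and -0.04 for NRPC2.

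Mediator, the complex that links transcription factors to RNA polymerase II, had 5 measured subunits, none past the limma threshold for either effect. MED31 and MED6 had the widest ranges. MED31 read 119.8 on overexpressor ABA, 53.05 on overexpressor mock, 73.02 on vector ABA and 75.69 on vector mock, and so was lowest where 4 NRPB genes were highest. MED6 read 65.04 on overexpressor ABA, 67.86 on overexpressor mock, 44.20 on vector ABA and 59.76 on vector mock. The median difference of the ABA effect was 0.37 over the 5 Mediator genes, against -0.66 over the NRPB genes and 0.14 over all genes. MED6 and AT2G22370, listed by RefSeq as MED18, were the 2 Mediator genes highest on overexpressor mock. Elongation factors had 3 paired genes and none past the filter. No initiation factor, and no kinase or phosphatase of the polymerase tail, was matched by symbol or synonym to a probe set paired with 1 gene. Probe sets paired with several genes were not searched, so such genes may still be on the array.

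**Figure D5:**
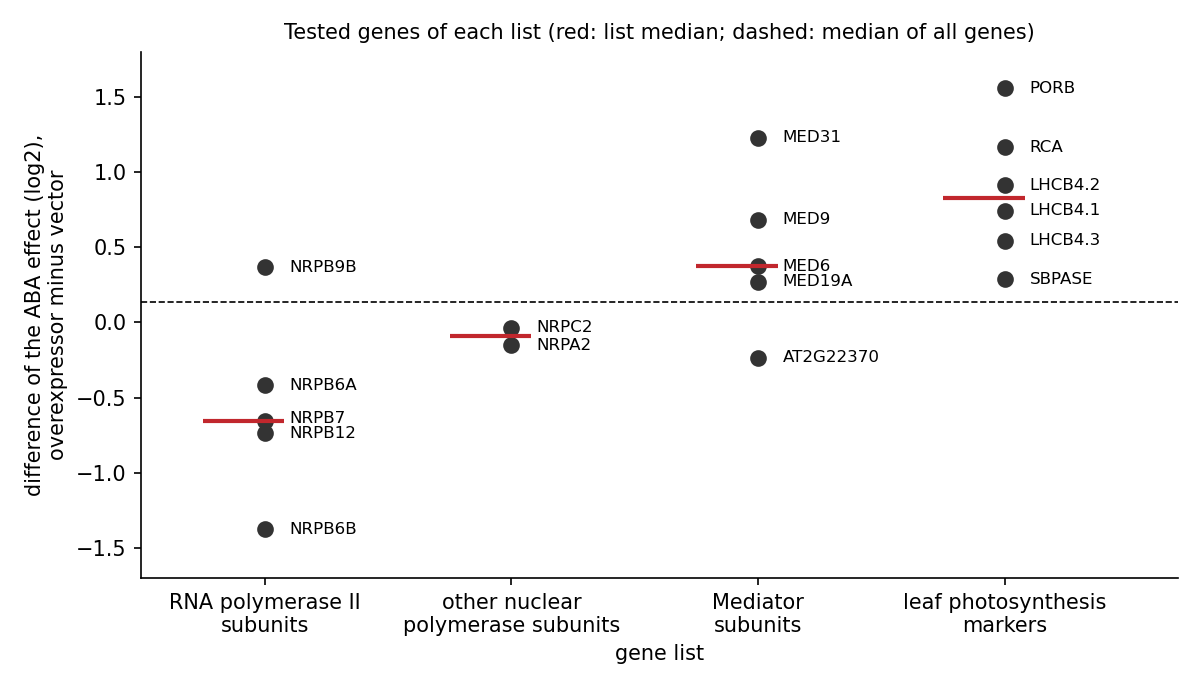
Difference of the ABA effect (log2, overexpressor minus vector) for each tested gene of 4 lists, with list medians in red and the median of all genes dashed. The RNA polymerase II subunits have a median of -0.66, the Mediator subunits of 0.37 and the leaf photosynthesis markers of 0.83.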

How the data were processed

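The authors deposited MAS5 signal intensities on a linear scale, 1 value per probe set and array, per the submitters' processing notes; the version is not given in the sources used here, and no detection calls were used. MAS5 subtracts background and mismatch signal and scales arrays to a common mean. The table holds 22810 probe sets, 64 of them controls; the platform annotation pairs 13513 with 1 gene and 503 with several, and 13436 matched a RefSeq gene (TAIR10.1, used for names only).

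Each array was scaled to a mean of 100 with 2% trimmed at each end, the pooled 25th percentile (13.26) served as a floor before the log2 step, and only probe sets with a mean of at least the pooled 40th percentile (29.03) were kept. A gene was represented by its brightest probe set, leaving 7322 genes. An additive model of treatment and genotype was fitted with limma 3.58.1 in R 4.3.3 (eBayes with trend, Benjamini-Hochberg adjustment over all genes); it has 1 residual degree of freedom, and the prior had a median of 2925. Differences between single arrays have no test, and the number of arrays limits the precision. All members, the genes of other lists past the threshold or else the 2 of widest range, and the 3 nearest genes to the 3 members of widest range are named. The members and lists were chosen with earlier results of these data known. Alternatives were quantile normalization, median centring, no floor, no filter, the mean of probe sets and no trend.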

Additional observations from a re-analysis of the deposited data

Results flagged for a closer look

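The ABA difference had opposite signs in overexpressor and vector plants for 3 of the 5 genes. It was -1.19 in overexpressor and 0.18 in vector plants for NRPB6B (difference -1.38), -0.64 in overexpressor and 0.10 in vector plants for NRPB12 (difference -0.74), and -0.49 in overexpressor and 0.16 in vector plants for NRPB7 (difference -0.66). The genotype difference likewise had opposite signs under ABA and under mock for 3 genes. It was -0.28 under ABA and 1.09 under mock for NRPB6B (difference -1.38), -0.003 under ABA and 0.73 under mock for NRPB12 (difference -0.74), and -0.02 under ABA and 0.39 under mock for NRPB6A (difference -0.42). With 1 array per group these differences were not tested. With the settings used, opposite signs were seen in 51.1% of all genes for ABA and in 47.8% for genotype. The member counts depended on scaling: with quantile normalization, and with median centring, NRPB6A also had opposite signs for ABA and NRPB7 for genotype.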

How the results depend on the processing

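No paired analysis was possible because each group has 1 array and the groups share a single replicate number. Under the 6 alternatives, the fitted effects of all 5 genes kept their direction and none passed the threshold; limma adjusted p-values ran from 0.711 to 1 for ABA and from 0.836 to 1 for genotype. Over all genes, calls for ABA numbered 228 with the settings used, 115 with quantile normalization, 63 with median centring, 9 without a trend and 0 without a filter; those for genotype numbered 119, 5, 4, 1 and 0. Without a filter, 641 genes for ABA and 562 for genotype of 13356 had an unadjusted limma p under 0.05.

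The NRPB genes at least 2-fold apart in the difference of the ABA effect numbered 1, and 3 with arrays centred on the median, where NRPB6B was at -1.74, NRPB12 at -1.10, NRPB7 at -1.02 and NRPB9B at 0.00; that centring moved the median of all genes from 0.14 to -0.23. For NRPB6B that difference ran from -1.74 to -1.38. In every setting, 4 genes were highest on overexpressor mock, and the share of all genes there ran from 16.8% without a filter to 32.8% with median centring. With quantile normalization and median centring, in that order, the ABA difference of NRPB6A in vector plants became 0.001 and 0.15, and the genotype difference of NRPB7 under ABA became -0.11 and -0.11. MAS5 signals carry no detection call here, so how far dim probe sets such as NRPB9B stand above background was not measured.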
